A study of Mus musculus with 7 samples.

Results

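Primary neurospheres were grown for 8 days from the hippocampus of single mice, and the 4 control libraries of the series were described here on their own. They were chosen by their label as control, 4 of the 7 libraries, and are called by the mouse they came from, WT_215, WT_116, WT_213 and WT_220. The text of the study counts fewer control mice than the labels do, and all labelled controls were used. The other 3 libraries carry a deletion of Med23 and were not used. The controls were C57/BL6 littermates, 2 months old and labelled wild type, and the methods of the study describe such littermates as Med23 flox/+ or Med23 flox/flox mice. They received tamoxifen, the drug that activates Nestin-CreER in the deleted mice, at 200 mg/kg by gavage on 5 days. The labels place this treatment at 2 months of age, whereas the methods place it at 1 month for cultures, and the labels allow 3 to 4 weeks of recovery in most experiments. The hippocampus was dissociated whole with trypsin and grown with FGF and EGF, each at 20 ng/ml. No cell type was sorted, so any cell of the tissue that survived in culture could contribute RNA.

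Neurospheres are floating clusters that form when neural stem and progenitor cells divide under EGF and FGF. In the hippocampus these cells lie in the dentate gyrus, where radial glia-like stem cells give rise to intermediate progenitors, neuroblasts and granule neurons. Glial progenitors that bear Olig2 also divide in the same medium, and spheres hold dividing cells together with cells that have begun to differentiate.

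The values are FPKM, fragments per kilobase of transcript scaled to the mapped fragments of the library, which correct for the length of a gene and for the size of a library. Where 4 values are given for a gene, they are FPKM in the order WT_215, WT_116, WT_213 and WT_220. Each mouse gave 1 library, so the spread between libraries holds the differences between mice, cultures and preparations together. With 1 group there was no test, and all values are descriptive. Ranges are the highest minus the lowest of the 4 values on log2(FPKM + 1). For well expressed genes a range of 1 is a 2-fold and 2 a 4-fold difference in FPKM. For low genes the same range is a larger fold difference in FPKM. The read depth could not be recovered, because the FPKM of low genes lay on no common step. The fullest bin of 0.05 log2 units held 2.05% to 4.56% of the low genes of a pair of libraries.

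Of 24346 genes in the table, 11824 (48.6%) had at least 1 FPKM in all 4 controls, and 10578 had less than 1 FPKM in every one. A mean of at least 1 FPKM was reached by 13026 genes (53.5%). Between 12266 genes in WT_220 and 13144 genes in WT_213 had at least 1 FPKM. The summed FPKM lay between 485711 in WT_213 and 547029 in WT_220. The 10 most abundant genes held between 5.63% of it in WT_220 and 8.61% in WT_116.

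The most abundant transcripts were those of the ferritin subunits, which store iron. Fth1 (GRCm38.p6, chromosome 19, bases 9980600 to 9985111) encodes the heavy chain and stood at 5965, 16655, 11137 and 2134 FPKM. It was the most abundant gene in WT_215, WT_116 and WT_213, whereas the creatine kinase Ckb led in WT_220. Ftl1, the light chain, had 3065, 6268, 4565 and 2238 FPKM. Both ferritin genes had their highest value in WT_116 and their lowest in WT_220, and together they held 1.82%, 4.71%, 3.23% and 0.799% of the summed FPKM. Ckb, which buffers ATP in brain cells, had 3675, 1528, 2684 and 5626 FPKM and ran the other way. Of the 20 genes with the highest mean, 11 were genes of ribosomal proteins, led by Rpl41, and the others included Eef1a1, Ppia, Tmsb4x, Actb and Tpt1. The 20 genes held 9.58% of the summed mean FPKM, and 55 genes had a mean of at least 1000 FPKM.

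Among the 13026 genes with a mean of at least 1 FPKM, the median range was 0.69 and the median SD 0.31 on log2(FPKM + 1). A range of at least 2 was found for 756 genes (5.80%), a range of at least 1 for 4006 (30.8%), and a range under 0.5 for 4364. The share with a range of at least 2 was 4.44% for genes of 1 to 5 FPKM and 8.21% for the 792 genes of at least 100 FPKM, so the wide ranges were not limited to low genes. Without WT_220 the count was 200, and without WT_116 it was 340, whereas it was 706 without WT_215 and 669 without WT_213.

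The differences between the controls followed mainly 1 order. Of the 24 possible orders of 4 libraries, the order WT_116, WT_213, WT_215 and WT_220 from the highest to the lowest value held 285 of the 756 genes, and its mirror image held 224. Together these 2 orders held 67.3% of the genes with a range of at least 2 and 39.1% of all 13026, of which 19.4% had the first order and 19.7% its mirror image. The first principal component held 77.8% of the variance, with WT_116 at 51.8, WT_213 at 26.8, WT_215 at -20.0 and WT_220 at -58.6. WT_116 and WT_213 were the closest pair by Pearson's correlation across these genes (r = 0.971), followed by WT_215 and WT_220 (r = 0.963). WT_116 and WT_220 were the farthest (r = 0.861), and 610 genes differed between them by at least 2. Where shares of all genes are set beside a list below, they are shares of these 13026 genes. For counts of list genes with a mean of at least 1 FPKM, the share over all 24346 genes of the table was 53.5%. The plot of range against level shows where the gene lists described next fall among all genes.

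**Figure D1:**
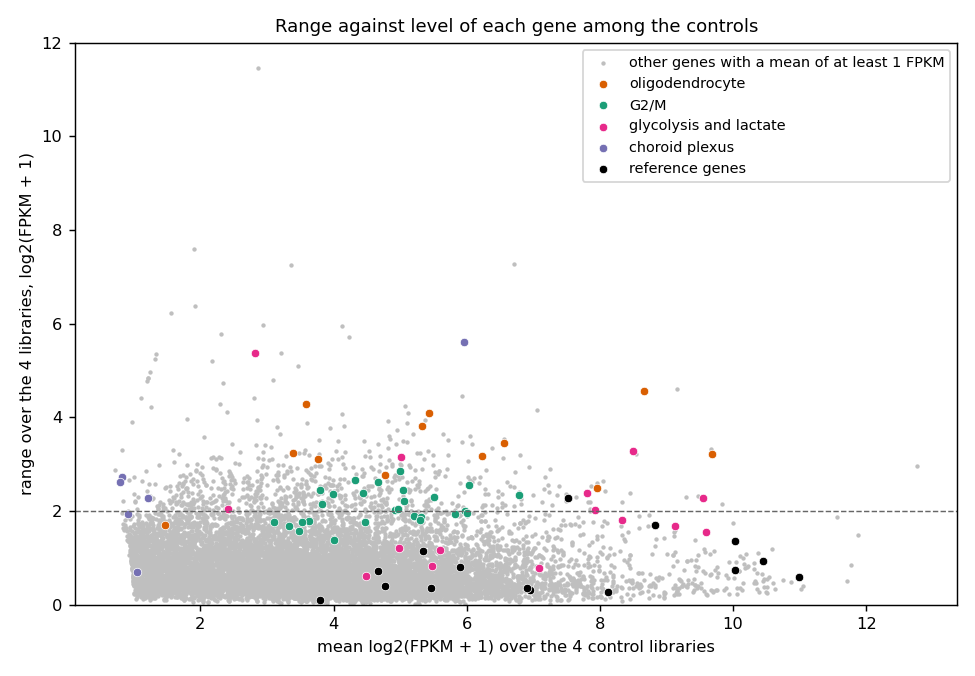
Each point is 1 of the 13026 genes with a mean of at least 1 FPKM, with its mean log2(FPKM + 1) over the 4 controls on the x axis and its range over them on the y axis. The dashed line marks a range of 2, which 756 genes (5.80%) reached. On or above it lie 11 of the 12 oligodendrocyte genes and 14 of the 27 G2/M genes, and below it 14 of the 15 reference genes.

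The 15 lists of marker genes of cell classes, with the mean log2(FPKM + 1) over the genes of a list as its level, gave the level of each class in the cultures. The oligodendrocyte list (5.57), the neural stem and radial glia list (4.87), the oligodendrocyte precursor list (4.51) and the astrocyte list (4.43) had the highest levels, as means of the 4 libraries. The neuronal lists followed, with 2.95 for mature neurons and 2.82 for neuroblasts and immature neurons. The lists of microglia (2.35) and mural cells (2.29) were below these, and the remaining 7 lists had levels between 0.70 and 1.63. A list level depends on which genes were chosen, and in whole cultures fewer cells of a class and less RNA per cell cannot be told apart. The cells are labelled as primary NSCs, and all 24 stem cell markers had a mean of at least 1 FPKM. So did all 12 oligodendrocyte genes, all 12 precursor genes and 17 of the 18 astrocyte genes. This count therefore does not single out stem cells. Compared with the stem cell list, the list of mature oligodendrocytes had the higher level, by 0.70 over whole lists. Over the first 5 genes of each list the difference was -0.33, thus lower.

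**Figure D2:**
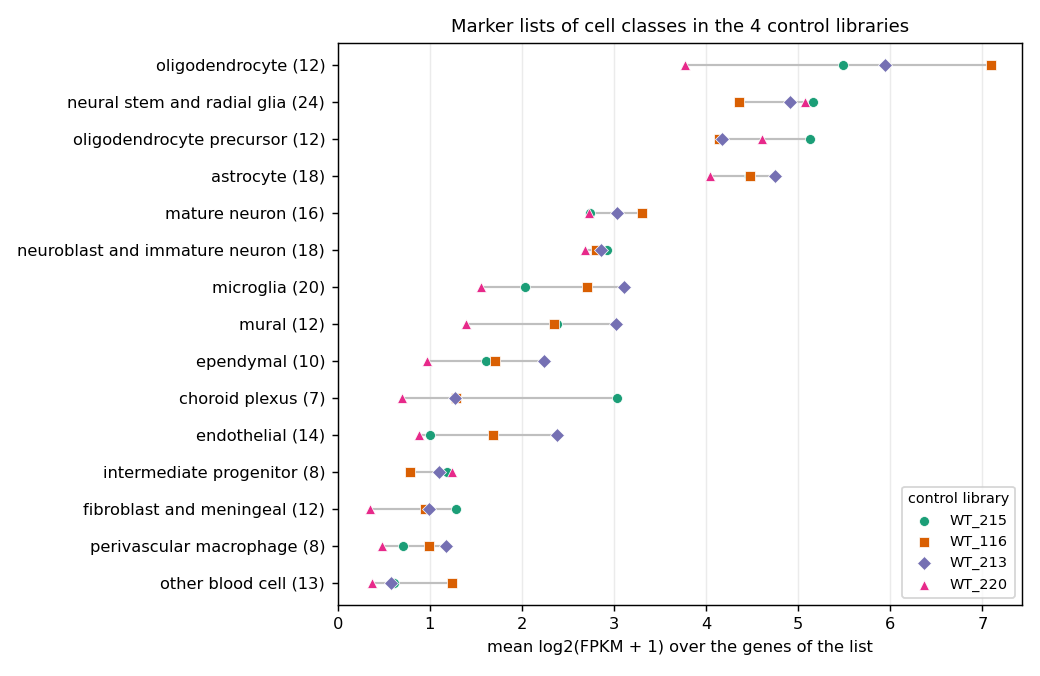
Mean log2(FPKM + 1) over the genes of each class list (x axis) in each control library (points), with the number of genes measured in brackets and a grey line from the lowest to the highest library. The oligodendrocyte list spans from 3.77 in WT_220 to 7.10 in WT_116, and the neuroblast list only from 2.68 to 2.92.

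The genes of neural stem cells and radial glia were expressed at high levels. The median gene of the list had 24.3 FPKM, and 7 of the 24 had at least 100. Vim, the intermediate filament of radial glia, had 1275, 1073, 1589 and 1692 FPKM, and Fabp7, their fatty acid binding protein on chromosome 10 from 57784923 to 57788450, had 1557, 463, 1000.2 and 1518 FPKM. The filament Nes had 144, 84.1, 109 and 186 FPKM and the transcription factor Sox2 155, 93.1, 109 and 191 FPKM, with ranges of 1.13 and 1.03. WT_116 had the lowest value for 18 of the 24 genes, against 36.8% of all genes.

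The list held genes of different states. Hes5, a Notch target, had 6.72, 0.278, 0.863 and 4.81 FPKM, and Rfx4, a transcription factor of radial glia, had 31.6, 12.6, 20.9 and 59.7 FPKM. Both were high in WT_215 and WT_220 and low in WT_116. Lpar1, a receptor of adult stem cells that oligodendrocytes also carry, had 5.16, 22.5, 10.8 and 1.21 FPKM, Gfap 39.2, 69.6, 138 and 17.8 FPKM and Hopx 108, 184, 159 and 90.1 FPKM. These 3 genes, known from slowly dividing radial glia or from astrocytes, had their lowest value in WT_220. Only 5 of the 24 genes of the list did, against 39.7% of all genes. Sox9, Fabp7 and Slc1a3, also genes of radial glia or astrocytes, were lowest in WT_116. Tfap2c had the lowest mean of the list (0.408, 1.38, 2.33 and 0.410 FPKM). In all, 5 of the 24 genes had a range of at least 2, among them Gfap, Hes5, Rfx4 and Lpar1, against 5.80% of all genes.

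Of the 18 astrocyte genes, 17 had a mean of at least 1 FPKM, against 53.5% of the genes of the table, and 4 had at least 100. Apoe, the lipid carrier, had 403, 712, 594 and 189 FPKM and was the highest. S100b had 26.6, 102, 51.8 and 8.23 FPKM and Gja1, a gap junction protein, 12.2, 35.6, 36.4 and 3.31 FPKM, both lowest in WT_220. Aldh1l1, a folate enzyme of astrocytes, had 90.2, 44.3, 102 and 197 FPKM and was highest in that library. The water channel Aqp4, which marks differentiated astrocytes, had only 2.77, 2.80, 5.22 and 0.513 FPKM. The list as a whole ranged by 0.71, by 0.28 without WT_220 and by 0.44 without WT_213. Of its genes, 4 had a range of at least 2, against 5.80% of all genes. Some of these genes are shared with radial glia and, like S100b, with oligodendrocytes.

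The list of mature oligodendrocytes had the widest range of all 29 lists. All 12 genes of mature oligodendrocytes had a mean of at least 1 FPKM, and all 12 were highest in WT_116 and lowest in WT_220, against 29.6% of all genes that were highest in WT_116 and 39.7% that were lowest in WT_220. The full order WT_116, WT_213, WT_215 and WT_220 was kept by 11 of the 12, against 19.4% of all genes. The exception was Opalin, the lowest of the list, with 1.71, 4.20, 1.59 and 0.606 FPKM. Mbp, myelin basic protein, had 838, 2234, 1023 and 238 FPKM, a range of 3.23. Ermn, a late cytoskeletal protein, had 9.47, 43.4, 19.1 and 1.26 FPKM, and Ugt8a, which makes the myelin lipid galactosylceramide, 35.8, 151, 70.9 and 7.82 FPKM. The list level was 5.48, 7.10, 5.94 and 3.77 in the 4 libraries, a range of 3.33 that became 1.61 without WT_220. It exceeded the stem cell list by 0.33, 2.75 and 1.03 in WT_215, WT_116 and WT_213 and was 1.30 below it in WT_220.

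The genes of oligodendrocyte precursors divided into members with opposite orders. Olig1 and Olig2, transcription factors of the lineage that EGF-grown progenitors also express, had 1361, 437, 603 and 1943 FPKM and 461, 152, 215.3 and 701 FPKM. Cspg4, the NG2 proteoglycan, had 43.2, 6.43, 12.6 and 50.99 FPKM, Tnr, an extracellular glycoprotein, 23.99, 4.05, 6.62 and 13.4 FPKM, and Pdgfra, the receptor for PDGF, 8.94, 0.206, 0.506 and 3.68 FPKM. These 5 genes were high in WT_215 and WT_220 and lowest in WT_116. Pdgfra was low for its class, and was under 1 FPKM in WT_116 and WT_213. Bcas1 and Enpp6, which mark the passage from precursor to myelin-forming cell, had 69.1, 243, 119 and 22.9 FPKM and 2.66, 11.4, 5.82 and 0.403 FPKM, and Sox10, a factor of the whole lineage, 31.2, 70.3, 32.6 and 16.3 FPKM. These 3 followed the mature genes, with the highest value in WT_116 and the lowest in WT_220. Gpr17 and C1ql1, with low means of 1.23 and 2.59 FPKM, did not, and were highest in WT_215 and lowest in WT_213. Of the 12 genes, 9 had a range of at least 2, against 5.80% of all genes, whereas the level of the list ranged by 0.99, and by 0.47 without WT_215.

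**Figure D3:**
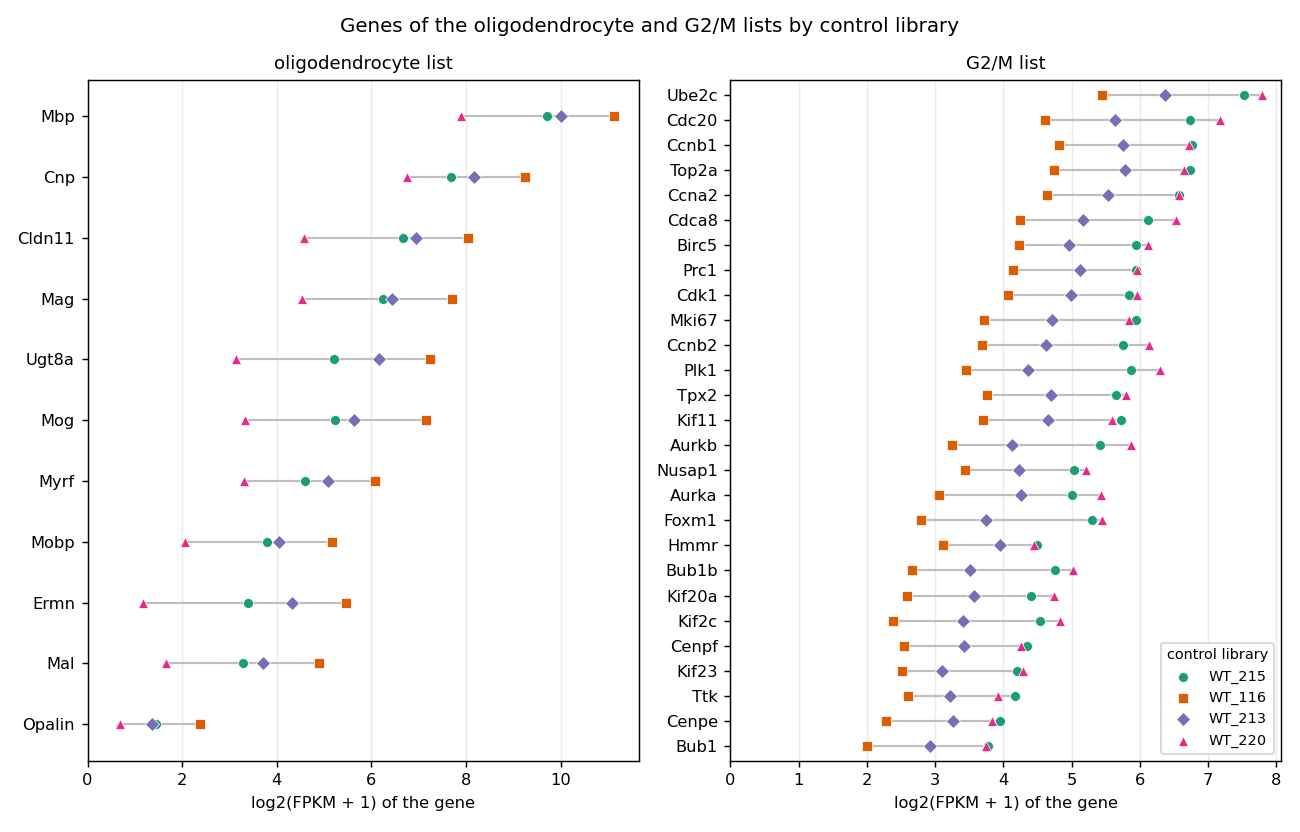
Log2(FPKM + 1) of 11 of the 12 genes of the oligodendrocyte list (left) and of the 27 genes of the G2/M list (right) in the 4 control libraries (points), with a grey line from the lowest to the highest library. WT_116 is highest and WT_220 lowest for the 11 oligodendrocyte genes, and WT_116 is lowest for all 27 G2/M genes.

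The lists of neuronal genes had lower levels and smaller ranges than those of oligodendrocytes. The defining genes of intermediate progenitors were under 1 FPKM in every library, with 0.0651, 0.361, 0.0600 and 0.0875 FPKM for Eomes, which encodes Tbr2, and 0.228, 0.520, 0.341 and 0.0975 FPKM for Neurog2. Only 3 of the 8 genes of that list had a mean of at least 1 FPKM, against 53.5% of the genes of the table. They were Insm1 (3.64, 0.875, 2.26 and 8.24 FPKM), Igfbpl1 (3.03, 0.183, 1.999 and 2.57 FPKM) and Btbd17 (19.6, 10.8, 22.4 and 19.6 FPKM), which other neural progenitors can express. Dcx, the microtubule protein of neuroblasts, had 1.39, 0.775, 1.66 and 0.582 FPKM. The neuroblast list had 2.82 ± 0.10 (SD, n = 4), the smallest range among the class lists (0.23, and 0.11 without WT_220). Stmn2 (3.04, 11.9, 8.44 and 0.8288 FPKM) was its 1 gene with a range of at least 2. The small range of the list did not mean constant members. Of its 14 genes with a mean of at least 1 FPKM, 3 kept the order WT_116, WT_213, WT_215 and WT_220, among them Stmn2. Another 3, among them Stmn1, had its mirror image. The median range of these 14 genes was 0.99, against 0.69 over all genes. Tubb3, neuronal tubulin, had 14.7, 17.4, 13.7 and 15.4 FPKM, a range of 0.32. The most abundant genes of that list, Stmn1 and Sox4, are also expressed by dividing progenitors.

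Of the 16 genes of mature neurons, 14 had a mean of at least 1 FPKM, but none reached 100. Rbfox3, which encodes the nuclear protein NeuN, had 1.12, 4.23, 1.25 and 1.56 FPKM. The synaptic protein Snap25 had 11.2, 33.04, 21.95 and 10.4 FPKM and the neurofilament Nefl 12.1, 40.99, 27.7 and 5.52 FPKM. For 10 of the 16 genes the highest value was in WT_116, among them Rbfox3, Snap25 and Nefl, against 31.4% of the 19008 genes above 0 in any control. Of the others, 3 were highest in WT_220, 2 in WT_213 and 1 in WT_215. The last was Map2, the most abundant gene of the list (mean of 89.3 FPKM), which was lowest in WT_116. Over the 4 libraries the list stood at 2.74, 3.30, 3.03 and 2.73.

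Microglial genes were present and ordered by mouse. The list stood at 2.03, 2.70, 3.11 and 1.55, and 14 of its 20 genes were highest in WT_213. Of the 19008 genes above 0 in any control, 23.5% were, and of those with a mean of at least 1 FPKM, 19.8%. Tyrobp, the adaptor of microglial receptors on chromosome 7 from 30413782 to 30417582, had 39.03, 77.3, 109.5 and 14.3 FPKM, and the receptor Trem2 had 8.70, 21.1, 33.4 and 5.02 FPKM. Both were highest in WT_213 and lowest in WT_220. The genes that mark microglia at rest in the brain had means under 1 FPKM. Tmem119 had 0.414, 0.176, 0.367 and 0.0269 FPKM, P2ry12 0.702, 1.60, 0.739 and 0.434 FPKM and Cx3cr1 0.106, 0.552, 0.782 and 0.0866 FPKM. Sall1, a listed gene that neural progenitors also express, was the 1 gene highest in WT_220.

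Vascular genes had the same library at the top. Of the 14 endothelial genes 13 were highest in WT_213, and of the 12 mural genes 9 were, against 23.5% of genes above 0 in any control. Cldn5, a tight junction protein of brain endothelium, had 1.82, 7.48, 23.9 and 3.80 FPKM, and Pecam1 1.23, 3.39, 10.6 and 1.02 FPKM. Rgs5, a pericyte gene, had 3.64, 4.75, 13.1 and 0.601 FPKM, and Acta2, smooth muscle actin, 30.1, 27.3, 54.3 and 5.17 FPKM. Acta2 is not limited to vessels, and was above 1 FPKM in all 4 libraries. The levels were 0.996, 1.69, 2.38 and 0.88 for the endothelial list and 2.38, 2.35, 3.02 and 1.40 for the mural list. In the list of other blood cells, T and B cell genes were at or near 0, and Cd3g was listed at 0 in all 4 libraries. That list was led by hemoglobin genes, of which Hbb-b1 had 7.33, 40.8, 20.3 and 0.000705 FPKM, but the globin genes have near-identical copies and their single values are uncertain.

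The choroid plexus genes were highest in 1 mouse. All 7 genes of that list were highest in WT_215, against 18.3% of the genes above 0 in any control and 17.2% of those with a mean of at least 1 FPKM. Only 1 of the 7 had at least 1 FPKM in all 4 libraries. Ttr, the thyroid hormone carrier secreted by the plexus, had 630.4, 57.3, 31.1 and 11.9 FPKM, a range of 5.62. Kcnj13, a potassium channel, had 5.86, 0.104, 0.240 and 0.0383 FPKM and Clic6, a chloride channel protein, 5.33, 0.177, 0.191 and 0.0350 FPKM. The list level ranged by 2.33 over the 4 libraries and by 0.58 without WT_215. Another gene of the same pattern was Chil1, a secreted chitinase-like protein, with 74.99, 1.76, 1.12 and 0.386 FPKM, 1 of the 15 genes with the largest range among those of at least 5 FPKM.

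Ependymal and fibroblast genes were low. The ependymal list stood at 1.61, 1.71, 2.23 and 0.97, with Foxj1, the factor of motile cilia, at 7.28, 9.68, 8.17 and 4.78 FPKM and Tmem212 at 0, 0, 0.578 and 0 FPKM. Of the 12 genes of fibroblasts and meninges, 5 had a mean of at least 1 FPKM and 0 had that level in all 4 libraries. The highest value was in WT_215 for 7 of the 12, against 18.3% of genes above 0 in any control. Of the 8 genes of perivascular macrophages, 3 reached that mean.

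Genes of the cell cycle were expressed in every control and were ordered in the same way throughout. The G2/M list had levels of 5.43, 3.50, 4.41 and 5.56, and the G1/S list 5.05, 3.64, 4.21 and 5.18. WT_116 was lowest and WT_213 next lowest for all 27 G2/M genes and all 25 G1/S genes, against 27.4% of all genes. WT_220 was highest for 18 and 17 of them and WT_215 for the other 9 and 8. All 27 G2/M genes had a range of at least 1 and 14 of at least 2, against 30.8% and 5.80% of all genes. The lists ranged by 2.06 and 1.54, and by 1.15 and 0.97 without WT_116. Plk1, a mitotic kinase, had 57.7, 9.94, 19.5 and 77.8 FPKM, and Foxm1, the transcription factor of the G2/M genes, 38.2, 5.94, 12.3 and 42.7 FPKM. Cdc20, an activator of the anaphase-promoting complex, had 106, 23.3, 48.5 and 143 FPKM, and Ube2c, its ubiquitin-conjugating enzyme, 183, 42.5, 81.3 and 219.6 FPKM. Among the G1/S genes, the chromatin protein Uhrf1 had 58.9, 11.97, 24.9 and 70.4 FPKM, and the helicase subunits Mcm2 and Mcm6 had 69.0, 17.95, 28.5 and 82.1 FPKM and 63.8, 17.8, 30.8 and 73.4 FPKM. Pcna, the clamp of the replication fork, differed less (353, 217, 247 and 335 FPKM).

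The promoters of the cell cycle genes were searched, as these genes shared an order. Many G2/M promoters carry a CHR element (TTTGAA or TTCGAA) near CCAAT boxes (CCAAT), and many G1/S promoters carry E2F sites (TTTCGCGC or TTTGGCGC). Both strands of the 250 bases before any listed start of a gene in RefSeq were searched, with overlapping matches counted. The CHR letters were in 10 of the 22 G2/M genes with a promoter in the table (45.5%), in 4 of 20 G1/S genes (20%) and in 19.6% of all 27025 genes of the promoter table. The CCAAT letters were in 19 of 22 G2/M genes (86.4%), in 12 of 20 G1/S genes (60%) and in 37.5% of that table. The E2F letters were in 1 of 22 G2/M genes (4.55%), in 4 of 20 G1/S genes (20%) and in 0.759% of that table. Among the 9887 genes with a promoter in the table and a mean of at least 1 FPKM the shares were 14.1%, 40.7% and 1.51%. A match is a stretch of letters, not a site shown to be bound.

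Promoters are shown for Cdc20 and Ube2c, as G2/M genes with both CHR and CCAAT letters, and for Mcm6, the G1/S gene with the most E2F matches. Each is the 150 bases before the start on GRCm38.p6, read along the strand of the gene, with these letters in capitals, which read ATTGG or TTCAAA where a match lies on the other strand. The Cdc20 window is chr4:118437344-118437493 on the reverse strand, the Ube2c window chr2:164769779-164769928 on the forward strand and the Mcm6 window chr1:128359706-128359855 on the reverse strand.
Cdc20: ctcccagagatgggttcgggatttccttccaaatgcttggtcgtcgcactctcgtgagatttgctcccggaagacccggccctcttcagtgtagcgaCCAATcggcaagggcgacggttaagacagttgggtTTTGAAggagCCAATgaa
Ube2c: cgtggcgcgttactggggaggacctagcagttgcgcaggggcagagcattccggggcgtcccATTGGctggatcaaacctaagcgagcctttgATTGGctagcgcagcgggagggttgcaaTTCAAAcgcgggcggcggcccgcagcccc
Mcm6: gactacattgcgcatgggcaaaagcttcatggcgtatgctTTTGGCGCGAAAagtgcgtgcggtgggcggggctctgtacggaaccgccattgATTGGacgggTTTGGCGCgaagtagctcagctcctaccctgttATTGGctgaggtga
In Cdc20 the CHR letters begin 18 bases before the start, between 2 CCAAT matches. In Ube2c they begin 29 bases before it, downstream of 2 CCAAT matches. Mcm6 holds 3 E2F matches, 2 of them overlapping on opposite strands, and the nearest begins 47 bases before the start.

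The list of D cyclins and CDK inhibitors ranged by 1.19, and by 0.68 without WT_116. Ccnd1, the cyclin that responds to growth factors, had 798, 564, 569 and 828 FPKM, a range of 0.55. The CDK inhibitor Cdkn1a, a p53 target, had 324, 520.0, 397 and 374 FPKM and was highest in WT_116. Cdkn2a, the locus of p16 and p19 that accumulates in cultured cells, had 41.7, 10.8, 56.4 and 114 FPKM, the widest range of the 12 genes of that list (3.28). It was highest in WT_220, which also had the highest level of G2/M genes.

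The receptors for the growth factors of the medium were present in every library. Egfr had 42.03, 14.5, 29.3 and 41.1 FPKM and Fgfr1 42.95, 39.6, 56.2 and 49.8 FPKM, whereas Fgfr2, which oligodendrocytes carry, had 5.10, 13.1, 11.4 and 1.84 FPKM. Of the 13 feedback genes of ERK signaling, 12 had a mean of at least 1 FPKM, 9 of them with the lowest value in WT_116 and 8 with the highest in WT_220, against 36.8% and 33.4% of all genes. Spry1, an inhibitor of receptor signaling, had 59.4, 15.8, 31.3 and 89.1 FPKM and the ETS factor Etv4 42.8, 10.99, 18.8 and 62.3 FPKM. Spred1, another inhibitor, had 47.9, 36.2, 42.6 and 35.8 FPKM, a range of 0.41. Spry3 was listed at 0 in all 4 libraries.

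All 28 immediate early genes had a mean of at least 1 FPKM, but their spread differed. Egr1, a zinc finger factor induced by growth factors, had 146, 23.7, 37.9 and 159.8 FPKM, with WT_215 and WT_220 high and WT_116 and WT_213 low. Fos, induced by the same signals, had 27.6, 22.1, 25.997 and 21.8 FPKM, a range of 0.33. The list as a whole ranged by 0.45, and by 0.09 without WT_116, and 8 of its genes had a range of at least 2, against 5.80% of all genes. The extracellular matrix of neural progenitors was well expressed, with Tnc, which encodes tenascin C, at 291, 83.98, 241 and 495 FPKM.

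Several factors of the forebrain were expressed, whereas those of more caudal regions were low. Lhx2, a factor of the cortical field, had 40.5, 11.9, 24.01 and 43.8 FPKM and Emx2, a cortical and hippocampal factor, 10.9, 6.26, 10.4 and 13.1 FPKM. Of the 20 genes of the forebrain list, 11 had a mean of at least 1 FPKM, a share near the 53.5% of all genes of the table. Of the 20 genes of midbrain, hindbrain and cord identity, 1 had a mean of at least 1 FPKM. That gene was Egr2 (9.77, 3.94, 5.11 and 12.8 FPKM), which is also an immediate early gene, and 5 genes of the list were listed at 0 in all 4 libraries. Nkx2-1, a factor of the ventral forebrain, was listed at 2.67, 0, 0 and 0 FPKM, above 0 in WT_215 alone.

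**Figure D4:**
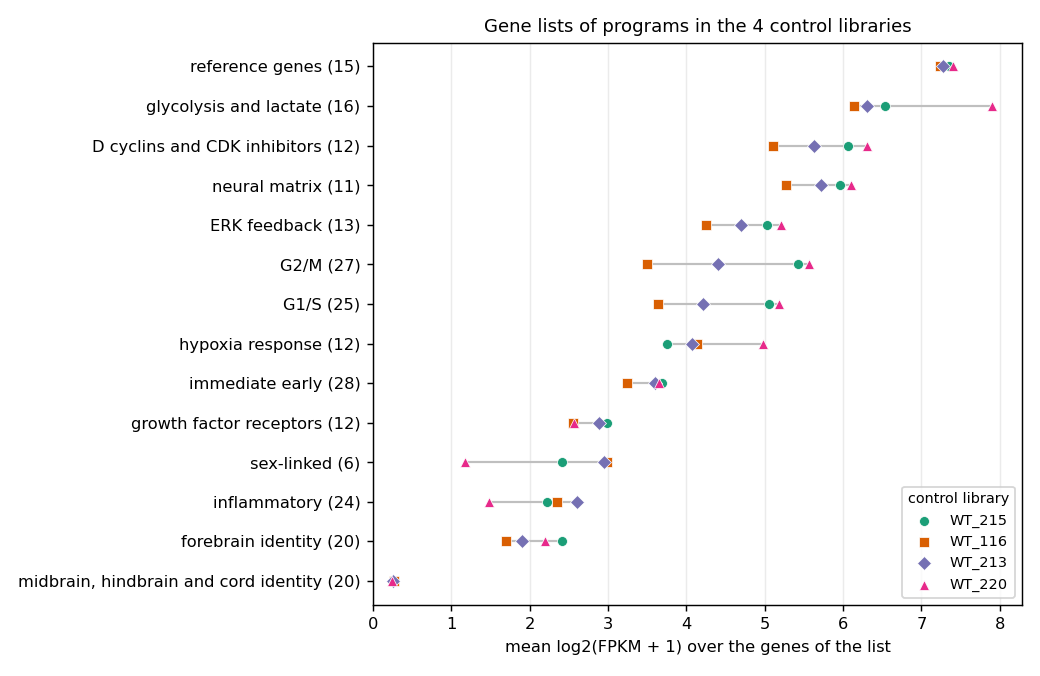
Mean log2(FPKM + 1) over the genes of each program list (x axis) in each control library (points), with the number of genes measured in brackets and a grey line from the lowest to the highest library. WT_220 stands apart in glycolysis and lactate at 7.91 against 6.14 to 6.54 in the other libraries, and the level of the reference genes ranges by 0.16.

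Genes of glycolysis and of the response to low oxygen set 1 library apart. The glycolysis and lactate list had levels of 6.54, 6.14, 6.30 and 7.91, a range of 1.77 over the 4 libraries and of 0.40 without WT_220. Of its 16 genes, 13 were highest in WT_220, against 33.4% of all genes. Slc16a3, the lactate exporter Mct4 on chromosome 11 from 120948484 to 120959000, had 3.42, 1.27, 1.69 and 92.9 FPKM, 73.2-fold between WT_116 and WT_220. Ldha, which turns pyruvate into lactate, had 408, 143, 204 and 1398 FPKM and the phosphofructokinase Pfkl 31.3, 14.2, 15.5 and 134 FPKM. The genes that were not highest in WT_220 were Slc2a1, Ldhb and Slc16a1, which encode a glucose transporter, a lactate dehydrogenase subunit and another lactate transporter.

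The hypoxia response list stood at 3.75, 4.13, 4.07 and 4.97, with 8 of its 12 genes highest in WT_220, against 33.4% of all genes. Its range of 1.22 became 0.38 without WT_220. Vegfa, the vascular growth factor, had 26.4, 26.3, 30.4 and 156 FPKM and Egln3, an oxygen-dependent prolyl hydroxylase, 5.69, 4.57, 4.75 and 37.1 FPKM. For both, WT_220 stood well above 3 libraries that were close to each other. Ndrg1, another gene induced by low oxygen and one that oligodendrocytes express, ran against the list with 8.53, 25.5, 20.5 and 4.76 FPKM. Car9, a carbonic anhydrase, was low in all 4 libraries, with a mean of 1.41 FPKM. Oxygen in the spheres was not measured, and its part in these values was not tested. Apln, a peptide gene outside these lists, was also highest in WT_220, with 31.9, 7.90, 34.9 and 129.7 FPKM.

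The core letters of the hypoxia response element (ACGTG or GCGTG) were searched in the same windows, a choice made after these values were seen. They were in all 10 hypoxia genes with a promoter in the table, in 14 of the 16 glycolysis genes (87.5%), in 15 of the 22 G2/M genes (68.2%), in 41.5% of the promoter table and in 62.0% of genes with a mean of at least 1 FPKM. Short motifs of this kind occur often. The Slc16a3 promoter is shown because that gene had the widest range of both lists. The window is chr11:120948917-120949066 on the forward strand, the 150 bases before the start that the promoter table gives, with these letters in capitals. That start lies inside the span of the gene given above, which begins at 120948484.
Slc16a3: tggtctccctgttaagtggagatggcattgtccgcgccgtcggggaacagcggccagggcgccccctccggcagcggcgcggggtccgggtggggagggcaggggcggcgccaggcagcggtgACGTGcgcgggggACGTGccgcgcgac
It holds 2 matches, the nearer of which begins 14 bases before that start.

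Of the 24 inflammatory genes, 16 had a mean of at least 1 FPKM, against 53.5% of the genes of the table. The highest value was in WT_213 for 13 of the 24, against 23.5% of genes above 0 in any control. Spp1, osteopontin, had 329.9, 922, 644 and 97.6 FPKM and Lyz2, the lysozyme of myeloid cells, 132, 177, 181 and 33.04 FPKM. The chemokine Ccl2 had 30.4, 9.40, 14.8 and 3.40 FPKM and was highest in WT_215. The cytokines Il1a, Il1b and Il6 had means under 1 FPKM. The microglia list was likewise highest in WT_213 and lowest in WT_220, and its part in these values was not tested.

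The sex-linked genes divided the mice, for which the labels give no sex. Xist, the RNA that silences 1 X chromosome in females, lies on chromosome X from 103460373 to 103483233 and had 0.117, 0.565, 0.259 and 91.3 FPKM. The Y-linked genes had the opposite pattern, with 11.9, 35.7, 28.3 and 0.0735 FPKM for Ddx3y, 28.2, 53.3, 63.4 and 0.226 FPKM for Eif2s3y, 8.08, 8.32, 10.2 and 0.0281 FPKM for Kdm5d and 4.81, 7.73, 7.02 and 0 FPKM for Uty. WT_220 was thus the library with Xist at a high level and 4 Y-linked genes under 1 FPKM, and the 3 others were the reverse. It was also the library with the lowest oligodendrocyte level and the highest glycolysis level. With 1 such library, a difference of sex and any other difference of this mouse or culture cannot be told apart.

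**Figure D5:**
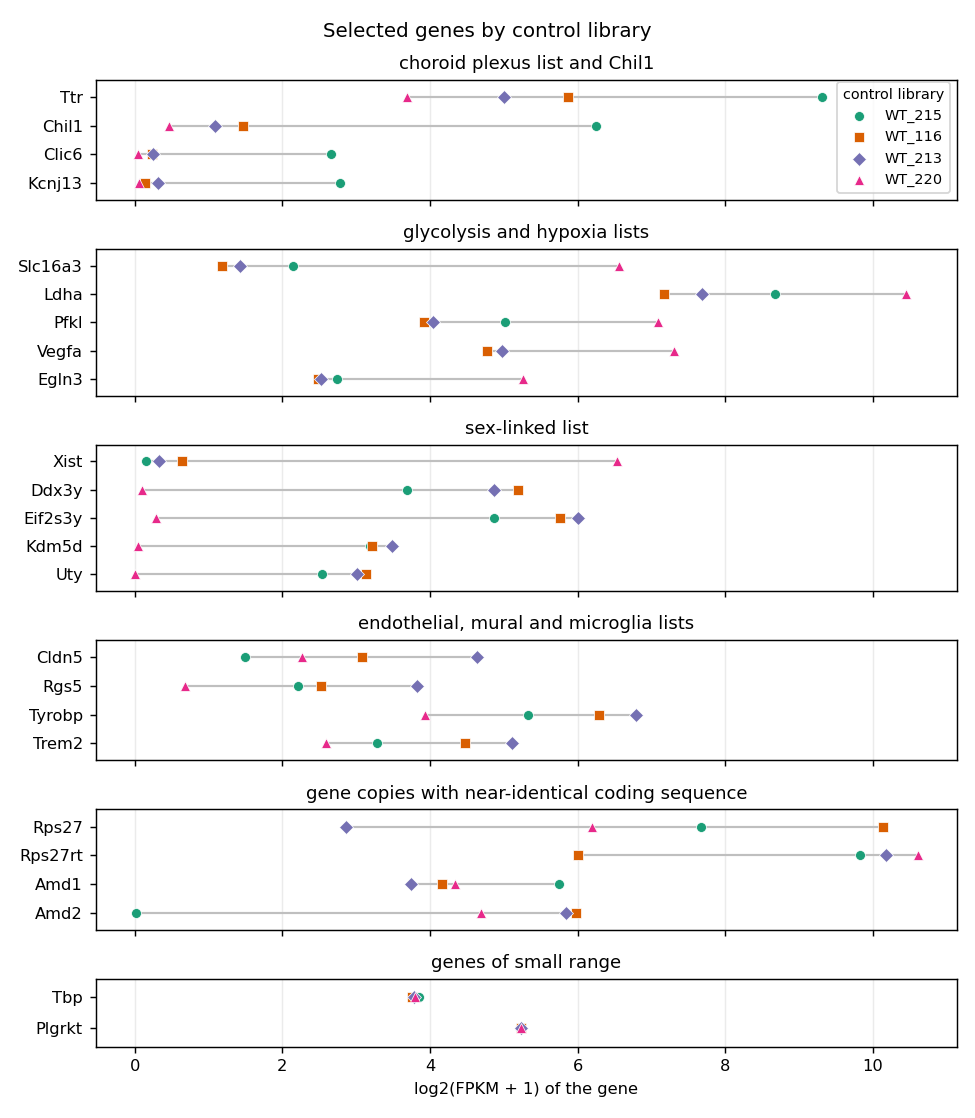
Log2(FPKM + 1) of selected genes (rows) in the 4 control libraries (points), with a grey line from the lowest to the highest library; points that coincide cover each other. The choroid plexus genes are highest in WT_215, the glycolysis and hypoxia genes and Xist in WT_220, and the endothelial, mural and microglial genes in WT_213, while Tbp and Plgrkt hardly differ.

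The list of genes often used for normalization had the smallest range of its level among all 29 lists but that of midbrain, hindbrain and cord identity. The level of the 15 reference genes was 7.32 ± 0.07 (SD, n = 4), a range of 0.16. The small range of the level did not mean steadier members. The median range of the 15 genes was 0.72, against 0.69 over all genes. Of the 15, 4 had a range of at least 1 and 1 of at least 2, against 30.8% and 5.80% of all genes. Tbp, the TATA-binding protein, had 13.4, 12.5, 12.7 and 12.9 FPKM. B2m, a subunit of MHC class I, was the 1 gene of the list with a range of at least 2, with 174, 327, 291 and 66.7 FPKM, a range of 2.28. Gapdh, which is a glycolytic enzyme, had 1031, 769, 766 and 1965 FPKM, with its highest value in the library that was highest in glycolysis. The smallest range among genes of at least 10 FPKM was that of Plgrkt, a plasminogen receptor, with 36.2, 36.4, 36.5 and 36.7 FPKM, followed by Ensa, Psmc1, Polr2h and Pex5. Med23, on chromosome 10 from 24869986 to 24913529, had 11.2 ± 1.29 FPKM (SD, n = 4), the values being 11.4, 10.3, 12.9 and 10.1 FPKM, and its range of 0.33 was below the median of all genes.

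Some of the widest ranges belonged to genes whose reads can be assigned to another copy. Rps27, a ribosomal protein gene on chromosome 3 from 90212667 to 90213648, had 202, 1128, 6.30 and 72.1 FPKM, and Rps27rt, a copy on chromosome 9 from 114982366 to 114982739, had 908, 63.3, 1158 and 1565 FPKM. Their ranges were 7.27 and 4.61, but their sums were 1109.5, 1192, 1165 and 1637 FPKM, a range of 0.56. The coding sequences in GENCODE M21, 252 bases without the stop codon, had 0 differing bases. The sequence is shown because it is the same in both genes.
Rps27 and Rps27rt: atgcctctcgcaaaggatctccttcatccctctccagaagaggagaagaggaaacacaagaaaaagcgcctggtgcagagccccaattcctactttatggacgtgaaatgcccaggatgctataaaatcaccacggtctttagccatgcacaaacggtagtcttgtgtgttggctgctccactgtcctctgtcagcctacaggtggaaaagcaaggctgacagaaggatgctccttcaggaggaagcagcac
Amd1 and Amd2, copies of an enzyme of polyamine synthesis on chromosome 10, differed by 1 base in 1002 coding bases. Amd1 had 52.5, 16.9, 12.3 and 19.2 FPKM and Amd2 0.0163, 61.8, 56.4 and 24.8 FPKM, and their sums of 52.6, 78.7, 68.8 and 43.98 FPKM ranged by 0.83. For the globin genes Hba-a1 and Hba-a2, which differed by 1 base in 426 coding bases, the sums still ranged by 3.74. They were 3.78, 33.9, 15.2 and 1.61 FPKM. The single values of such copies are uncertain, and only the sums can be read as levels.

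Small RNA genes were a further group of uncertain values. All 15 genes that were listed at 0 in 1 library and at 20 FPKM or more in another were miRNA, snoRNA or snRNA genes. Mir762, of 76 bases, had 0, 0, 0 and 2818 FPKM. Of the 8 miRNA and 11 snoRNA genes with a mean of at least 1 FPKM, 8 and 10 had a range of at least 2, whereas 717 of 12549 protein-coding genes (5.71%) did. FPKM divides by length, so a few fragments give a high value for so short a gene, and an exact 0 can be a failed estimate. Leaving out miRNA, snoRNA and snRNA genes changed the count of genes with a range of at least 2 from 756 to 737.

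Among genes of at least 5 FPKM, those that stood farthest above or below the other libraries included several list members. Mmp3, a secreted metalloproteinase, had 8.93, 48.6, 5.15 and 0.779 FPKM and was highest in WT_116. Syt4, a vesicle protein, had 52.2, 230.1, 105 and 9.58 FPKM, in the order of the oligodendrocyte genes. In WT_213 the genes farthest above the others were Cldn5, Rgs5, Rarres2 and Itgb2, after the small RNA Snora17. In WT_220 the genes farthest below the others were the Y-linked Eif2s3y, Ddx3y and Kdm5d. Syt4 was chosen after its values were seen.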

How the data were processed

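Total RNA of hippocampal neurospheres (100 ng a library) was sequenced, and the 4 control libraries were described. The authors mapped reads to the mouse genome (mm10) and deposited gene-level FPKM values; the submitters' processing notes name FastQC, TopHat and Cuffdiff, without versions. The strand setting of the counting is not given in the sources used here. The deposited table also holds the authors' group means, log2 fold changes, test statistics, p-values and q-values, which were not used. It has 0 columns without a sample.

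All genes were analysed on log2(FPKM + 1), with a mean of at least 1 FPKM for measures of spread, using Python 3.11.15, numpy 2.4.6, pandas 2.3.3 and matplotlib 3.10.9. The scripts were tested on simulated data. With 1 group there was no test between groups. The members and the 29 gene lists (15 of cell classes, 14 of programs) were chosen with earlier results of these data known. Named genes were, from each list, the highest, those listed at 0 and those with a range of at least 2. To these were added the 20 genes of highest mean, the 15 of largest range (mean of at least 5 FPKM), the 5 of smallest range (mean of at least 10 FPKM), for each library the 5 genes farthest above and the 3 farthest below the next library, and Med23. Other list members are named for their role and were chosen after their values were seen, as were the promoter motifs of the hypoxia response, the copies of genes and the restriction to protein-coding genes. Positions and promoters came from RefSeq on GRCm38.p6, the same primary assembly as mm10, where 24229 of 24346 symbols matched, and coding sequences from GENCODE M21. Alternatives were other pseudocounts, minimum values, scalings, shorter lists and leaving out each library. Depth is not known from FPKM, so no counting interval is given and the number of libraries limits the precision. Some genes are not reported here.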

Additional observations from a re-analysis of the deposited data

Results flagged for a closer look

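A gene was singled out where 1 of the 4 controls lay so far from the others that its gap to the nearest library, divided by the whole range on log2(FPKM + 1), was above Dixon's 95% critical value for 4 samples. Chance alone gives about 1 in 20 such groups. Of the 108 genes whose 4 values are given here, 11 passed, and of all 13026 genes with a mean of at least 1 FPKM, 429 (3.29%) did, 27.04% of them with WT_220 below the others. Many of the 108 were named because 1 library lay far from the rest or their range was wide, so these shares are not comparable. With 3 values at 0 the ratio is 1 by construction. No list level among the 29 passed.

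WT_220 stood above the other controls in Xist (gap over range 0.924), in the hypoxia genes Vegfa (0.92) and Egln3 (0.904) and in Mir762 (1), and below them in the Y-linked gene Kdm5d (0.914). WT_215 stood above the others in the choroid plexus genes Kcnj13 (0.906) and Clic6 (0.922) and in Nkx2-1 (1), which was listed at 0 in the other 3 libraries. WT_116 stood above the others in Eomes (0.898), at values under 1 FPKM in all 4 libraries, and below them in Rps27rt (0.83), whose coding sequence is the same as that of Rps27. WT_213 stood above the others in Tmem212 (1), listed at 0 in the other 3 libraries.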

How the results depend on the processing

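The number of genes with a range of at least 2 was 756, and 1482 with a pseudocount of 0.1 in place of 1, which widens the range of low genes by construction. It lay between 200 and 706 when 1 library was left out, the lowest without WT_220. The median of the 6 pairwise correlations, 0.94, and the count of 11824 genes present in all controls stayed within 1.5 times or the replicate spread under every alternative run for them. The level of the oligodendrocyte list minus that of the stem cell list was 0.70, and -0.33 with the first 5 members of each list; it lay between 0.02 and 1.37 with 1 library left out. The number of lists with a range of at least 1 was 13, and 6 to 11 with 1 library left out. The oligodendrocyte list ranged by 3.33, and by 1.61 to 3.33 with 1 library left out. The choroid plexus list ranged by 2.33, by 4.01 with a pseudocount of 0.1 and by 0.58 to 2.33 with 1 library left out. The glycolysis and lactate list ranged by 1.77, and by 0.40 to 1.77 with 1 library left out. Apart from the effect of the pseudocount and of fewer libraries, the cause was not tested. The microglia and G2/M lists kept ranges of at least 1.08 and 1.15 with 1 library left out, and the microglia list 1.04 with its first 5 members. Of the ranges of lists under the other settings, 118 stayed within the limits and 27 moved, and of those of named genes 185 and 31. No paired analysis was possible because only 1 group was described. With 4 mice in 1 group and no read depth, the spread between mice cannot be divided into culture, animal and counting error.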

Other observations

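Further protein-coding genes of at least 5 FPKM stood apart in single libraries and were chosen after their values were seen. In WT_215, the membrane glycoprotein Emb was at 58.2 FPKM and at 5.29 to 5.67 FPKM in the others, and Lcn2, a secreted iron carrier of inflamed tissue, at 118 FPKM against 9.55 to 35.7. Ace, which the choroid plexus also expresses, was at 17.8 FPKM against 1.11 to 2.83. In WT_116, the protease Ctsk was at 30.8 FPKM against 1.28 to 10.05, and the glutathione transferase Gsta3 at 128 FPKM against 6.57 to 48.0. In WT_213, the macrophage receptor Adgre1 was at 20.4 FPKM against 2.93 to 9.31 in the others, and Igfbp7, a secreted protein of vessels, at 123 FPKM against 16.9 to 58.9. In WT_220, the mitochondrial protein Fam162a, which is induced by low oxygen, was at 331 FPKM against 73.4 to 85.6, and the matrix protein Fbln2 at 112 FPKM against 8.75 to 27.9. Mmp12, a macrophage elastase, was at 9.57 FPKM in WT_220 and at 59.6 to 132 in the others.

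Rn45s, the precursor of ribosomal RNA, was listed at 195, 404, 302 and 572 FPKM in WT_215, WT_116, WT_213 and WT_220. Its part in the differences between libraries was not tested.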
